A study of Mus musculus with 12 samples.

Results

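Metallothioneins and the membrane transporters that carry zinc and manganese were described in the liver of mice raised on low-dose cadmium (LDC). The set was defined by gene name and role, with earlier results of these data known. It held 9 of the 18193 genes that a probe set of the array names alone. They were Mt1 and Mt2 (metallothioneins), Mtf1 (the metal sensor), Slc30a1 and Slc30a10 (exporters) and Slc39a14, Slc39a8, Slc39a4 and Slc11a2 (importers). The array carried 23 probe sets annotated to one of these symbols alone, of which 21 passed a filter on low signal, and all 9 genes had at least 1 tested probe set. The probe set with the highest mean over the 12 arrays stood for its gene and is called its main probe set.

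Liver RNA of C57BL/6J mice was hybridised in 4 groups of 3 arrays: LDC females, control females, LDC males and control males. The dams of LDC mice drank water with 100 nM cadmium chloride starting 1 week before mating, the offspring kept drinking it after weaning, and the liver was taken at 30 weeks of age. Control mice and their dams drank water alone, and all 4 groups were of the same strain and age. By their labels the arrays are biological replicates, 3 to a group, with no litter or cage named. Each p-value therefore measures only how these arrays spread, and would be too small if littermates were among them.

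Metallothioneins are small cysteine-rich proteins that bind zinc, copper and cadmium in the cytosol, and the liver is a main site of their synthesis. Their genes are switched on when free zinc activates MTF1, which binds short metal response elements in their promoters, and they also respond to glucocorticoids and to inflammatory signals. Zinc exporters of the Slc30 family and importers of the Slc39 family set how much zinc and manganese a liver cell holds, and some of the importers carry cadmium as well.

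The promoters are shown because the core of the metal response element can be read in them. RefSeq start-site windows of 300 bases on build GRCm38.p6, 250 before and 50 after each start, were at hand for 6 of the 9 genes, in 7 windows because Slc39a8 has 2. The 7-base core was searched on both strands as TGCACNC or TGCGCNC, where N is any base and overlapping matches were each counted. Of 32851 mouse windows, 25.7% held at least 1 match, 7.11% at least 2, 1.97% at least 3 and 0.517% at least 4. The Mt2 window held 4 matches, the Mt1 and Slc30a10 windows 3 each, the Slc30a1 window 2, the Slc39a8 windows 1 and 0, and the Mtf1 window 0. The Mt1 matches began at bases -23, 3 and 21 relative to the start used, and those of Slc30a1 at -43 and 31. Bases outside the windows were not searched, so matches further along a gene are not counted. For Mt1, Slc30a1 and Slc39a8 the start used lies inside the gene record, so the windows are placed differently against the genes. A match is a run of letters and not a measured binding site. Capitals mark the matched core on either strand. Mt2 is given as the 250 bases before its start and as a short stretch across the start:
Mt2 (chr8:94172368-94172617, plus strand): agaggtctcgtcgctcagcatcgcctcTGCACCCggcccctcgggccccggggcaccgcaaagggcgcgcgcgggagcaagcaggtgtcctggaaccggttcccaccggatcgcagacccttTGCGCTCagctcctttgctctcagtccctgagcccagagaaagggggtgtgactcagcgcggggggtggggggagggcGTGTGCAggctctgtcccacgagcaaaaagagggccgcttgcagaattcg
Mt2 (chr8:94172611-94172640, plus strand): gaattcgggtcGTGCGCAggcccaggggcg
Mt1 (chr8:94179055-94179084, plus strand): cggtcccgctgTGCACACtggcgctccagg
Mt1 (chr8:94179089-94179118, plus strand): tcTGCACTCcgcccgaaaagTGCGCTCggc
Slc30a1 (chr1:191906727-191906756, plus strand): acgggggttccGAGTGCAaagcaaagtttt
Slc30a1 (chr1:191906800-191906829, plus strand): gcctccgggccGAGCGCAgtcgccgcggac
Slc30a10 (chr1:185454598-185454847, plus strand): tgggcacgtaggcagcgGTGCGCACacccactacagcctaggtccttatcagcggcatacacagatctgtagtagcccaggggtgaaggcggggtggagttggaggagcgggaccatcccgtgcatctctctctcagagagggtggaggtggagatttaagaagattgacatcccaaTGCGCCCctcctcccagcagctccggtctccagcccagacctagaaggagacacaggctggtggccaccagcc
The first capital run of Slc30a10 holds 2 matches, 1 on each strand, because it is its own reverse complement. Mt2 and Mt1 are neighbours on chromosome 8, with 5315 bases between the end of Mt2 and the start of the Mt1 record.

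The arrays were alike in overall signal, with a median between 95.1 and 110.3 and correlations of log2 signal within groups between 0.858 and 0.883. Xist and Eif2s3y placed all 12 arrays with the gender of their label. The summed signal of 7 hepatocyte markers lay between 257533 and 312450 on all arrays, and 0 of them passed the limma test at an adjusted p under 0.05 in either exposure comparison, nor at an unadjusted p under 0.05.

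In LDC females, both metallothioneins fell, and they were the only 2 of the 9 genes that passed the test against control females. A passing gene is called here. The test was limma on log2 signal over all 27022 tested probe sets, with Benjamini-Hochberg adjustment and a threshold of 0.05, and it called 0.122% of those probe sets in females (0.0962% as lower). Mt2 fell to signals of 474, 774 and 936 in LDC females, against 13375, 10142 and 16758 in control females. Every LDC female lay far below every control female. The log2 difference was -4.23 (SE 0.33, 95% interval -4.95 to -3.52), a signal 18.8-fold lower, with a limma adjusted p of 3.15e-05.

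Mt1 fell in the same animals, to 3227, 3593 and 4408 in LDC females against 22809.9, 16851 and 27706 in control females on its main probe set. The groups again did not overlap, and the log2 difference was -2.57 (SE 0.24, 95% interval -3.08 to -2.06), a signal 5.93-fold lower with a limma adjusted p of 0.00015. The name of this probe set ends in _s_at, which marks probes shared by several transcripts, so its signal may include transcripts similar to Mt1. A second Mt1 probe set read 30.1, 44.1 and 188 in LDC females and 99.5, 811 and 580.3 in control females. There the lowest control female lay inside the LDC range, and a log2 difference of -2.52 (SE 0.82) did not pass (limma adjusted p = 0.352). Leaving out any 1 of the 12 arrays kept the fall of Mt2 between -4.44 and -3.95 and that of the main Mt1 probe set between -2.76 and -2.40, called in 12 of 12 such fits.

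In LDC males, the metallothioneins lay on the other side of their controls, but neither passed the test. Mt2 read 17656, 22543 and 22872 in LDC males and 4324, 11248 and 12543 in control males. All LDC males were above all control males, with 1 control male well below the other two. The log2 difference of 1.30 (SE 0.33, 95% interval 0.58 to 2.01) had an unadjusted limma p of 0.00156 and an adjusted p of 0.153. Mt1 read 23492, 35568 and 34259 in LDC males and 10457, 16689.7 and 21209.9 in control males, again without overlap, for a log2 difference of 0.98 (SE 0.24, limma adjusted p = 0.133). The second Mt1 probe set read 3547, 1747 and 1682 in LDC males and 252, 1774 and 803 in control males, and the groups overlapped.

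**Figure D1:**
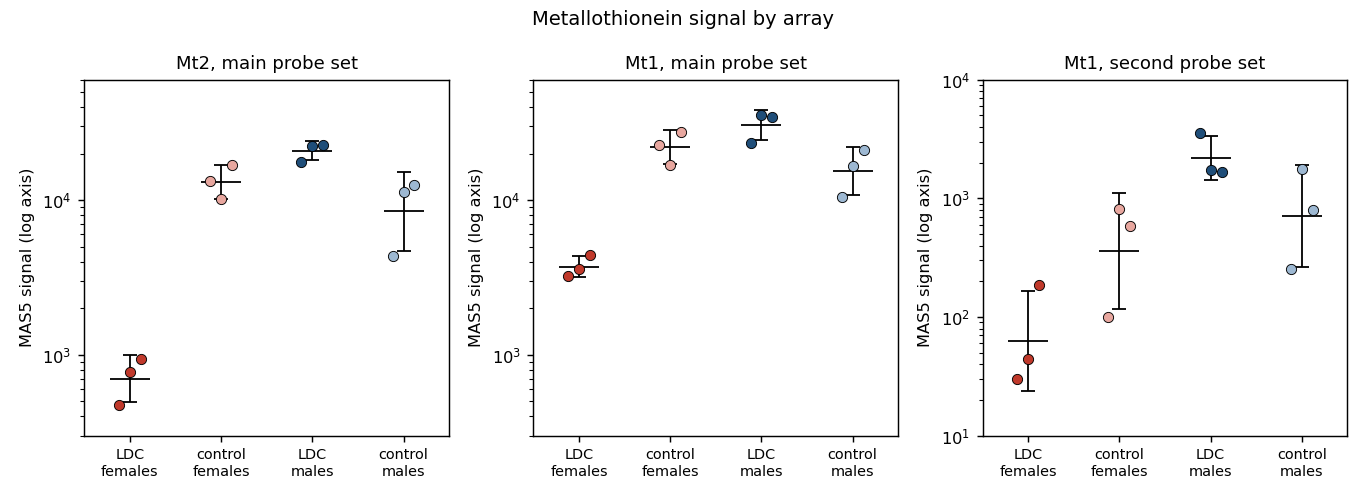
MAS5 signal of Mt2 and of both Mt1 probe sets on each of the 12 arrays, on log axes, in LDC females, control females, LDC males and control males. Points are arrays, wide ticks are means of the log2 signal and bars are their SD (n = 3). Mt2 lies between 474 and 936 in LDC females and at 4324 or higher on all other arrays.

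The effect of LDC on the metallothioneins differed between males and females by the test of the difference itself, which called 0.178% of all tested probe sets (0.126% as higher in males). For Mt2 the male effect exceeded the female effect by 5.53 log2 units (SE 0.47, limma adjusted p = 0.000133), and for Mt1 by 3.55 (SE 0.34, adjusted p = 0.000203). On the second Mt1 probe set the same contrast gave 4.14 (SE 1.16, limma adjusted p = 0.223). Mt1 and Mt2 were the 2 members called on their main probe sets, and they stayed called without any 1 of the 12 arrays. Averaged over males and females, the effect of LDC on Mt2 was -1.47 (SE 0.24, limma adjusted p = 0.0464, where 0.0444% of probe sets were called, 0.0259% as lower), a mean of effects of opposite sign. When 1 array was left out, that mean stayed called only without control female 1, control female 2 or control male 1, with a limma adjusted p up to 0.164 without LDC male 1. It also lost the call with quantile normalization (adjusted p = 0.0535), with 1 probe set per gene (0.0521) and with no intensity trend (0.356), and Mt1 was not called in it (-0.79, adjusted p = 0.112).

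Markers of blood cells were read beside the metallothioneins. Of 8 tested neutrophil markers, 4 fell in LDC females against control females, where 0.0962% of all tested probe sets were called as lower. In LDC males against control males 1 rose, where 0.278% of all tested probe sets were called in either direction. S100a8, which encodes a calcium-binding protein abundant in neutrophils, spanned 218 to 357 in LDC females against 1688 to 3284 in control females, a log2 difference of -3.17 (limma adjusted p = 2.06e-05). It spanned 1545 to 1695 in LDC males against 558 to 691 in control males, a log2 difference of 1.43 (limma adjusted p = 0.0178). The others that fell in LDC females were S100a9 (-2.75), Ngp (-1.75) and Prtn3 (-4.27). In males these stood at 1.29, 1.24 and 1.49, which did not pass.

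The summed signal of 12 measured neutrophil markers was 939 to 1342 in LDC females and 3865 to 6906 in control females, and 3647 to 4144 in LDC males and 1578 to 1977 in control males. Camp, Elane, Mmp8 and Cxcr2 were below the filter on low signal. Among 9 tested lymphocyte and plasma cell markers, 2 were called as lower in LDC females, Ighm and Jchain (-3.57 and -2.36). Of all tested probe sets, 0.0962% were called as lower there. In LDC males against control males 0 of the 9 were called. The list's median log2 difference was -0.61 in females and 0.28 in males. Cd3e and Cd79a were below the filter on low signal. The summed signal of the 11 measured markers was 1218 to 2542 in LDC females, 5787 to 12825 in control females, 4394 to 6691 in LDC males and 3983 to 4749 in control males. Of 12 macrophage and Kupffer cell markers 0 passed in either exposure comparison. At an unadjusted limma p under 0.05 there were 3 in females and 2 in males, where 9.01% and 10.2% of all tested probe sets passed. The median log2 difference of these markers was -0.83 in females and 0.71 in males. In whole liver, fewer cells of a type and less RNA per cell cannot be told apart, and the part of these cells in the metallothionein signals was not tested.

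Between control males and control females, Mt2 differed by -0.63 (SE 0.33, limma adjusted p = 0.296) and Mt1 by -0.51 (SE 0.24, adjusted p = 0.232), with overlapping groups. Of the 8 tested neutrophil markers 4 were lower in control males than in control females, where 4.14% of all tested probe sets were called as lower.

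Mtf1, which encodes the metal-sensing transcription factor of these genes, did not pass in any comparison. Its main probe set read 314, 400.0 and 428 in LDC females against 381, 442 and 477 in control females, and 396, 305 and 423 in LDC males against 441, 482 and 422 in control males. The groups overlapped in both, with log2 differences of -0.19 (95% interval -0.60 to 0.22) in females and -0.27 (95% interval -0.68 to 0.14) in males. Of its other 4 probe sets, 2 were tested and not called in any comparison, and 2 were below the filter on low signal.

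Slc30a10, which exports manganese from liver cells, was the 1 member called in LDC males against control males, where 0.278% of tested probe sets passed (0.118% as lower). It fell to 230.2, 405 and 287 in LDC males, against 682, 721 and 1179 in control males. The highest LDC male lay well below the lowest control male. The log2 difference was -1.48 (SE 0.24, 95% interval -1.99 to -0.97), a signal 2.79-fold lower with a limma adjusted p of 0.0191. The second Slc30a10 probe set was also lower, with 248, 212 and 229 in LDC males against 605, 546 and 896 in control males and a log2 difference of -1.54 (SE 0.21, limma adjusted p = 0.00761).

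The main probe set of Slc30a10 lost that call without LDC male 1 (-1.29, limma adjusted p = 0.0977), without LDC male 3 (-1.45, adjusted p = 0.0965) and without control male 3 (-1.23, adjusted p = 0.0605). It also lost it when the moderation of limma used no intensity trend (adjusted p = 0.161).

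In females the manganese exporter overlapped between LDC and control mice. Slc30a10 read 1580.4, 1239 and 1047 in LDC females and 1174, 1192 and 1379.8 in control females, for a log2 difference of 0.03 (95% interval -0.48 to 0.54). The second probe set gave 0.16 (SE 0.21, limma adjusted p = 0.881). The male effect minus the female effect was -1.70 (SE 0.30, limma adjusted p = 0.0407) on the second probe set and -1.51 (SE 0.34, adjusted p = 0.112) on the main probe set, so the difference between genders passed on only 1 of the 2.

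**Figure D2:**
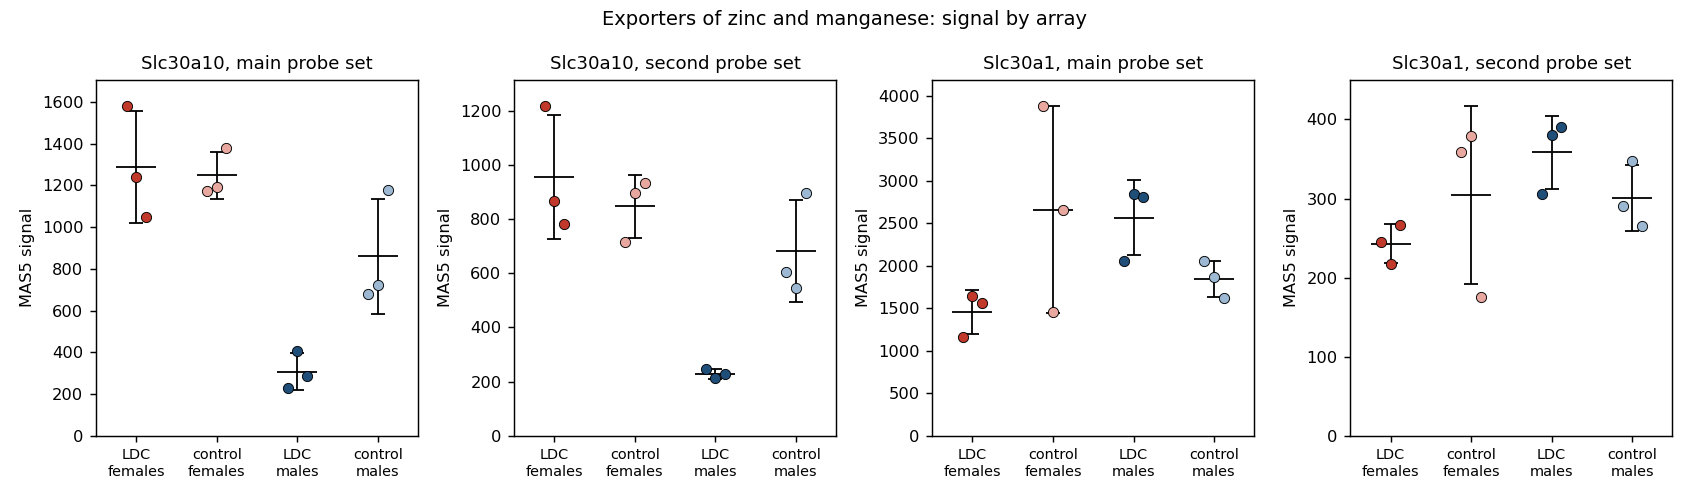
MAS5 signal of both probe sets of Slc30a10 and of Slc30a1 on each of the 12 arrays, in LDC females, control females, LDC males and control males, on axes that start at 0. Points are arrays, wide ticks are means and bars are SD (n = 3). Slc30a10 on its main probe set is at 405 or lower in LDC males and at 682 or higher in control males.

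Slc30a1, the zinc exporter of the outer cell membrane and a known target of MTF1, was not called in either exposure comparison. Its main probe set read 1164, 1647 and 1562 in LDC females and 3877, 1452 and 2651 in control females. The spread of the control females was wide, and control female 2 lay inside the LDC range. The log2 difference of -0.77 (SE 0.27) had an unadjusted limma p of 0.0116 and an adjusted p of 0.393, and without control female 2 it was -1.15 with an adjusted p of 0.026. In males it read 2053, 2843 and 2805 with LDC and 2052, 1863 and 1625 in controls, which touch but do not overlap (0.47, SE 0.27, limma adjusted p = 0.591). The male effect minus the female effect was 1.24 (SE 0.38, limma adjusted p = 0.281), and 1.62 with an adjusted p of 0.0215 without control female 2. The second Slc30a1 probe set gave log2 differences of -0.25 in females and 0.25 in males, neither called.

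The importers were not called in either exposure comparison. Slc39a14, which brings zinc, iron and manganese into hepatocytes, read 3119, 3366 and 3210.3 in LDC females and 3889, 4865 and 4865 in control females on its main probe set. The LDC females were all lower, but the log2 difference of -0.48 (SE 0.13, 95% interval -0.75 to -0.21) had a limma adjusted p of 0.201. The other 3 Slc39a14 probe sets gave 0.08, 0.64 and -0.33. On the probe set at 0.64, LDC females (322 to 325) were all above control females (136 to 289). That difference did not pass either (limma adjusted p = 0.643). In males the main probe set read 5797, 5389.9 and 5557 with LDC and 5315, 6333 and 7692 in controls, which overlapped (-0.19, 95% interval -0.46 to 0.08).

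The remaining importers overlapped between LDC and control mice on their main probe sets. Slc39a8, an importer of manganese and zinc that also carries cadmium, averaged 1868 ± 488 in LDC females and 2184 ± 215 in control females (SD, n = 3 each), a log2 difference of -0.25 (95% interval -0.62 to 0.11). It averaged 1371 ± 99.5 in LDC males and 1518 ± 227 in control males (-0.14, 95% interval -0.51 to 0.23). On the second Slc39a8 probe set, LDC males (300 to 391) were all below control males (409 to 430). That log2 difference of -0.27 did not pass (limma adjusted p = 0.644). In females the second probe set overlapped (-0.09, limma adjusted p = 0.922). Slc39a4, a zinc importer known from the gut, read 389.5, 747 and 1011 in LDC males and 663, 964 and 1303 in control males, with LDC male 1 lowest (-0.50, 95% interval -1.11 to 0.11). In females it averaged 1363 ± 82.1 with LDC and 1229 ± 103 in controls (0.15, 95% interval -0.46 to 0.76). Slc11a2, the divalent metal transporter DMT1 that carries iron, manganese and cadmium, averaged 336 ± 84.4 in LDC females and 276 ± 56.6 in control females, and 296 ± 44.7 in LDC males and 309 ± 54.3 in control males. Its log2 differences were 0.27 (95% interval -0.26 to 0.80) in females and -0.06 (95% interval -0.59 to 0.47) in males, and its 3 further probe sets were not called either.

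**Figure D3:**
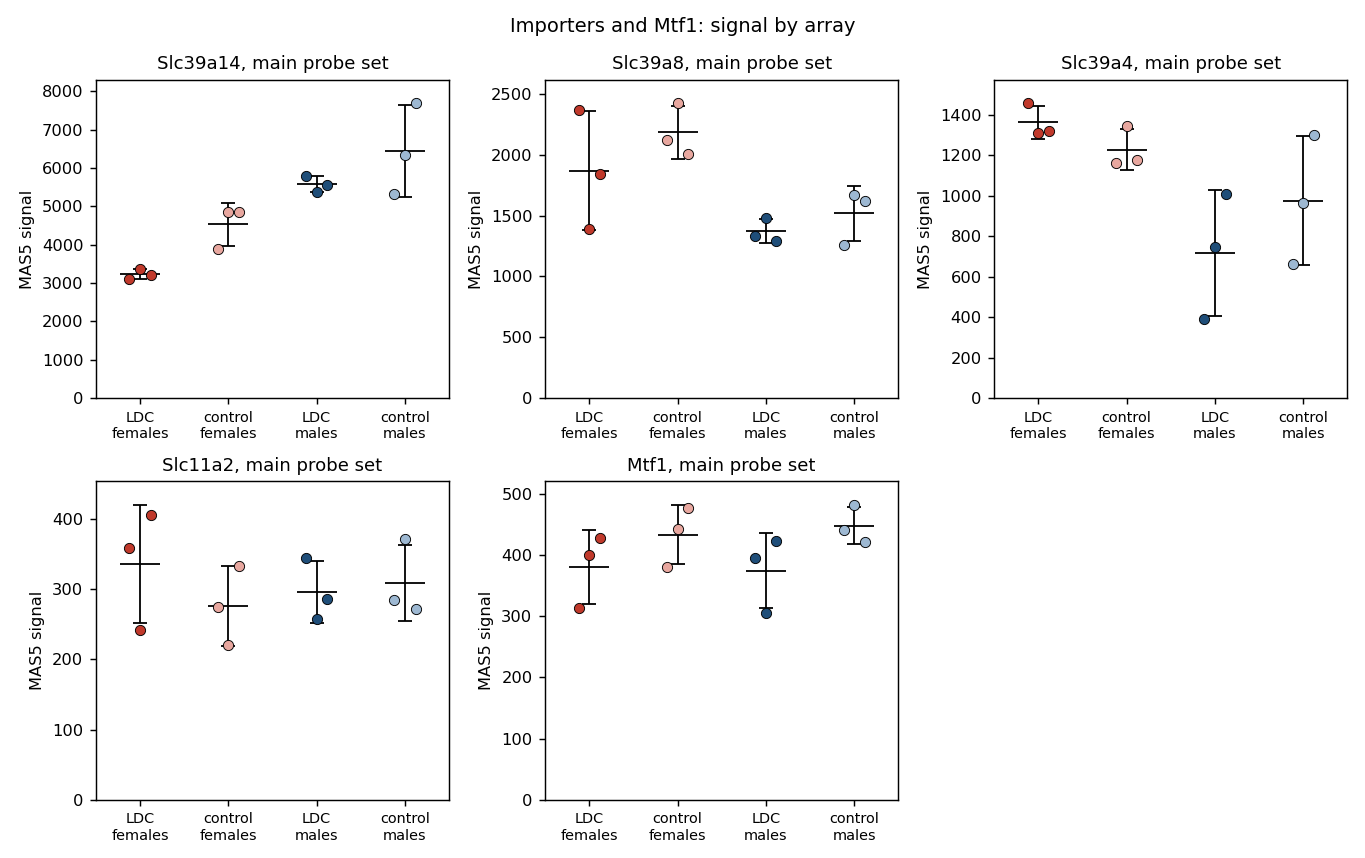
MAS5 signal of the main probe sets of Slc39a14, Slc39a8, Slc39a4, Slc11a2 and Mtf1 on each of the 12 arrays, in LDC females, control females, LDC males and control males, on axes that start at 0. Points are arrays, wide ticks are means and bars are SD (n = 3). Slc39a14 is at 3366 or lower in LDC females and at 3889 or higher on all other arrays.

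Counted over the 9 genes, 3 had main probe sets that did not overlap between LDC and control females and 4 between LDC and control males, where 13.9% and 16.5% of all tested probe sets did not overlap. At an unadjusted limma p under 0.05 the counts were 4 in females and 3 in males, where 9.01% and 10.2% of all tested probe sets passed. The median log2 difference over the 9 genes was -0.25 in females and -0.14 in males, with a median over all tested probe sets of 0.01 and 0.00. When a 2-fold difference was asked for together with an unadjusted limma p under 0.05, 2 members passed in females (2.18% of all probe sets) and 2 in males (3%).

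**Figure D4:**
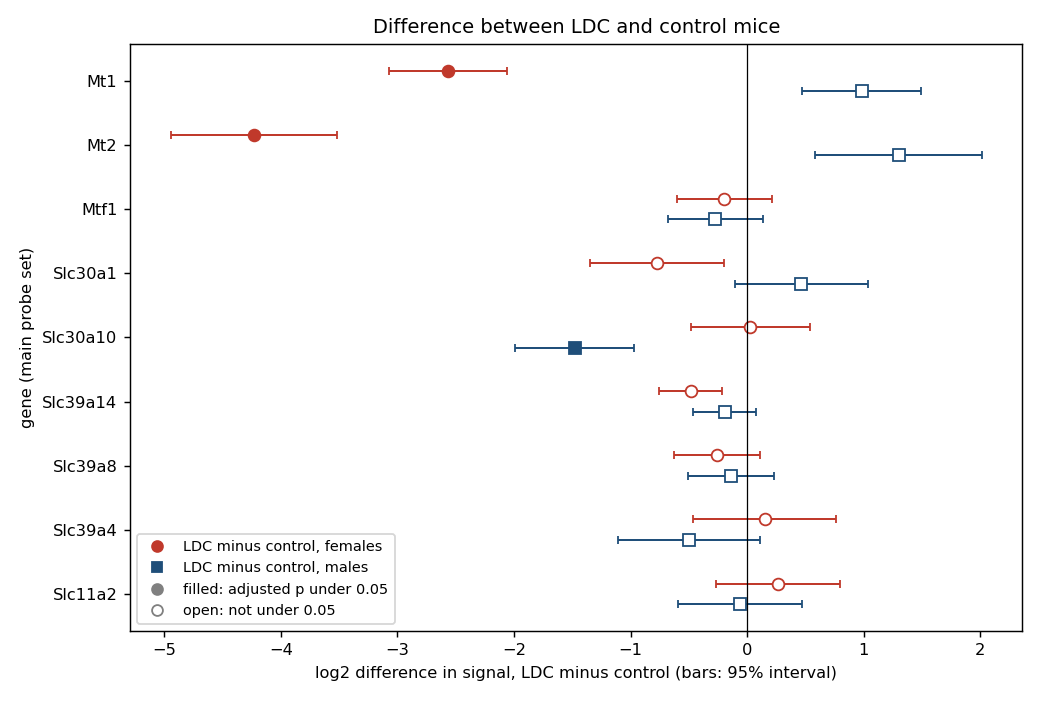
Log2 difference in signal, LDC minus control, for the main probe set of each of the 9 genes, with 95% intervals from limma (circles: females, squares: males). Filled symbols have an adjusted p under 0.05. Mt2 stands at -4.23 in females and 1.30 in males, and Slc30a10 at 0.03 in females and -1.48 in males.

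Males and females were also set against each other at the same exposure, which reuses the same 12 arrays. Among LDC mice, 5 of the 9 members differed, 3 higher and 2 lower in males, where 6.29% of all probe sets were called (3% as higher, 3.29% as lower). Of the 9 main probe sets 6 did not overlap, against 26.9% of all. Mt2 was 4.90 log2 units higher in LDC males than in LDC females (SE 0.33, limma adjusted p = 9.51e-07) and Mt1 3.04 higher (SE 0.24, adjusted p = 3.89e-06). On the second Mt1 probe set, the LDC males were all above the LDC females too, by 5.12 (SE 0.82, limma adjusted p = 0.00135). Slc30a10 was lower in LDC males by a log2 difference of -2.09 (SE 0.24, limma adjusted p = 8.7e-05) and of -2.04 on its second probe set. Slc39a14 was higher by 0.79 (SE 0.13, limma adjusted p = 0.00139). Its other 3 probe sets were higher by 1.51 (limma adjusted p = 0.000611), 1.35 (0.0455) and 0.61, which did not pass (0.405).

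Slc39a4 was lower in LDC males, with 389.5, 747 and 1011 against 1457, 1311 and 1320.3 in LDC females and a log2 difference of -1.03 (SE 0.29, limma adjusted p = 0.045). Without LDC male 1, the lowest, the difference was -0.65 (limma adjusted p = 0.155), and the call stood in 4 of the 12 fits that left out an array. It was lost with no intensity trend (adjusted p = 0.137). Slc39a8 passed on its second probe set only, at -0.72 (SE 0.18, limma adjusted p = 0.0243), with -0.42 (adjusted p = 0.199) on the main one. Slc30a1 was higher in all LDC males than in any LDC female, by 0.82, which did not pass (limma adjusted p = 0.0917). It passed with array weights (0.81, adjusted p = 0.0475), without control female 1 (adjusted p = 0.0301) and without control female 2 (adjusted p = 0.0145).

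Among control mice, Slc39a14 was the 1 member of 9 called, where 7.73% of all probe sets passed (3.59% as higher). Of the 9 main probe sets 2 did not overlap, against 24.5% of all. It read 5315, 6333 and 7692 in control males and 3889, 4865 and 4865 in control females, a log2 difference of 0.50 (SE 0.13, limma adjusted p = 0.0264). The other 3 Slc39a14 probe sets were higher in control males as well, by 1.33, 1.58 and 1.64, and each passed. On the main probe set the call was lost without control female 1 (0.39, limma adjusted p = 0.107), without control male 2 (0.50, adjusted p = 0.0719) and without control male 3 (0.36, adjusted p = 0.11). It was also lost with median centring (adjusted p = 0.0648) and with no intensity trend (0.113). Slc30a10 was at -0.58 (limma adjusted p = 0.169) in control males against control females, Slc39a8 at -0.53 (adjusted p = 0.0796, all males lower) and Slc39a4 at -0.38 (adjusted p = 0.485).

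**Figure D5:**
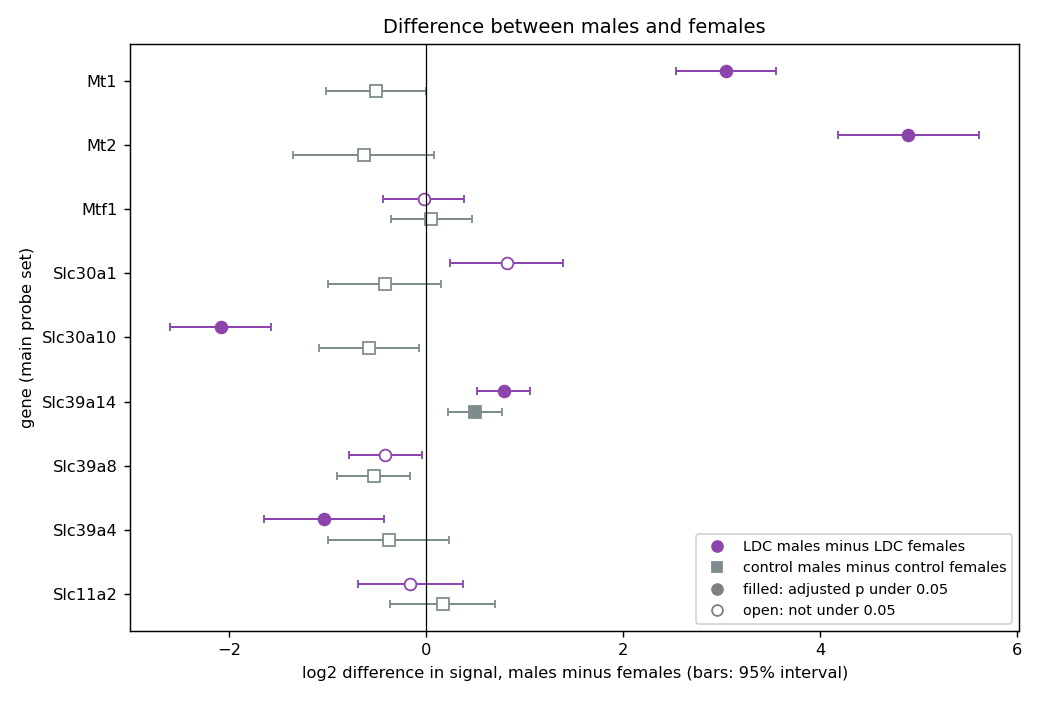
Log2 difference in signal, males minus females, for the main probe set of each of the 9 genes in LDC mice (circles) and in control mice (squares), with 95% intervals from limma. Filled symbols have an adjusted p under 0.05. Mt2 stands at 4.90 in LDC mice and -0.63 in control mice, and Slc39a14 at 0.79 in LDC mice and 0.50 in control mice.

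Across the 12 arrays the log2 signals of Mt1 and Mt2 had a Pearson r of 0.993, and of 0.910 after each group's mean was taken out. The 12 points share the 4 group means, so these values describe the arrays and carry no test. By the same measure the genes outside the set most like Mt2 were H2-Bl, a class I histocompatibility gene (0.927), Serpina7, which encodes thyroxine-binding globulin (0.917), and the immunoglobulin light chain genes Iglv1 and Igk (0.900 each). After each group's mean was taken out, r with Mt2 was 0.722 for H2-Bl, 0.401 for Serpina7, 0.530 for Iglv1 and 0.644 for Igk. Igk averaged a signal of 15.0 in LDC females, under the filter signal of 48.6. The genes most like Slc30a10 were Mrpl22 (0.978), Cbs, an enzyme that makes cystathionine from homocysteine (0.971), Zfp207 (0.964), Tubb2a (0.952) and Tmpo (0.952). With group means taken out, these stood at 0.843, 0.695, 0.828, 0.746 and 0.611. Within the set, Slc30a10 followed Slc39a4 most closely (0.820).

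The wider metal genes did not pass the test in either exposure comparison. For the counts that follow at an unadjusted limma p under 0.05, 9.01% of all tested probe sets passed in females and 10.2% in males. Mt3 and Mt4, the other metallothioneins, were below the filter on low signal. Of the other Slc30 exporters 6 of 8 were tested, and 0 were called by limma, with 0 in females and 0 in males at an unadjusted p under 0.05. The smallest p among them were those of Slc30a9, Slc30a5 and Slc30a6, whose log2 differences lay between -0.21 and 0.23. Of the other Slc39 importers 9 of 11 were tested and 0 called, with 1 in females and 0 in males at an unadjusted p under 0.05. Slc39a6 stood at -0.50 in females (limma adjusted p = 0.535), Slc39a10 at 0.57 (adjusted p = 0.567) and Slc39a11 at -0.25 (adjusted p = 0.606).

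Of 8 genes of manganese and iron handling 0 were called by limma, with 3 in females and 2 in males at an unadjusted p under 0.05. Tfrc, the transferrin receptor that brings iron into cells, spanned 2313 to 2504 in LDC females and 1120.4 to 1648 in control females, a log2 difference of 0.86 (SE 0.19, limma adjusted p = 0.128). Slc40a1, the iron exporter ferroportin, was at -0.32 in females and 0.39 in males, and Sod2, the manganese superoxide dismutase of mitochondria, at 0.22 and -0.05. Of 12 copper genes 0 were called, with 1 in females and 2 in males at an unadjusted p under 0.05. Cp, which encodes the plasma copper protein ceruloplasmin, was at -0.25 in females (limma adjusted p = 0.273), and the mitochondrial copper chaperones Sco1 and Sco2 were at -0.52 and -0.44 in males.

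Other genes that metals or the same signals can regulate were set beside the metallothioneins. Of 6 further targets of MTF1, 5 were tested and 0 called, with 1 in females at an unadjusted limma p under 0.05. That gene was Ndrg1, at -0.65 in females (limma adjusted p = 0.478). Slc39a10, given above, is on this list too, and Selenow, a selenoprotein gene, was at -0.19 in females. The list does not separate targets that MTF1 raises from those it lowers. Of 14 genes of heavy metal stress 0 were called. At an unadjusted limma p under 0.05 there were 4 in females and 5 in males, where 9.01% and 10.2% of all tested probe sets passed. Dnajb1, a heat-shock cochaperone, was at 0.64 in females (limma adjusted p = 0.144), Abcc4, an efflux pump, at 0.92 in males (adjusted p = 0.175) and Srxn1, which repairs oxidised peroxiredoxin, at -0.59 in males (adjusted p = 0.326).

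Of 17 glucocorticoid-responsive genes 16 were tested and 0 called. At an unadjusted limma p under 0.05 there were 7 in females and 2 in males, where 9.01% and 10.2% of all tested probe sets passed. The median log2 difference of the list was -0.19 in females and 0.12 in males. Dusp1, a phosphatase of stress kinases, was at -1.21 in males (limma adjusted p = 0.154), Cdkn1a, an inhibitor of the cell cycle, at -1.66 in females (adjusted p = 0.208) and Cebpd, a transcription factor, at -0.66 in females (adjusted p = 0.214).

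Of 22 acute phase genes, which hepatocytes switch on in inflammation, 1 fell in females and 1 in males. Of all tested probe sets, 0.0962% and 0.118% were called as lower. At an unadjusted limma p under 0.05 there were 11 in females and 2 in males, where 9.01% and 10.2% of all tested probe sets passed. Itih3, a plasma protein gene, spanned 17950 to 19864 in LDC females against 25278 to 30329 in control females (-0.56, limma adjusted p = 0.0282). Il1r1, the interleukin-1 receptor, spanned 1117 to 1224 in LDC males against 1960.2 to 2921 in control males (-0.997, limma adjusted p = 0.0462). Lcn2, which encodes the iron-scavenging lipocalin of neutrophils and inflamed liver, was at -2.78 in females (limma adjusted p = 0.0966) and 1.63 in males (adjusted p = 0.336), and the difference of these effects passed (4.41, adjusted p = 0.0455). The median log2 difference of the list was -0.37 in females and -0.09 in males, with 0.01 and 0.00 over all tested probe sets. Saa1, Saa2 and Saa3 spread widely in control females, from 3475 to 38659, 756 to 24715 and 523 to 8236. In LDC females they spanned 6719 to 9241, 1833 to 2440 and 553 to 1194, inside those ranges.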

How the data were processed

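Biotin-labelled liver RNA was hybridised to Affymetrix arrays, and the authors deposited 1 table of linear signal intensity summarised and scaled by MAS5, for 45101 probe sets and 12 arrays. The trimmed mean of every array was 500, the table used here holds no detection calls, and 0 value columns lacked a sample. The number of arrays limits the precision. Platform annotation gave 34945 probe sets 1 gene, 932 several and 9211 none. For 34754 probe sets the symbol was taken through the gene ID, whether or not it changed.

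Signals were log2 transformed with no pseudocount and no further scaling. Probe sets with a mean log2 signal under the 40th percentile (5.60, a signal of 48.6) were left out, leaving 27022. The fit over all 12 arrays, with 1 mean for each group, used limma 3.58.1 (R 4.3.3), with 8 residual degrees of freedom, moderated variances with an intensity trend, and Benjamini-Hochberg adjustment over all tested probe sets. The fit was tested on simulated data. Plots came from matplotlib 3.10.9 (Python 3.11.15). The 9 members, the gene lists and the marker lists were chosen with earlier results of these data known. All 9 members are named, and of each pathway list every gene called in females, males or the difference, with the smallest p filling up to 3. Saa1, Saa2 and Saa3 are named besides, for their spread in control females. The 5 genes most like Mt2 and Slc30a10 are named by Pearson r.

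Alternatives were filters at the 20th and 60th percentile or none, quantile normalization, median centring, log2(value + 32), each gender fitted alone, 1 probe set per gene, any tested probe set, no intensity trend, array weights, Student's test on each probe set alone, replicate number as a block, and leaving out each array. The study selected array genes by a 2-fold difference and a p-value with no stated adjustment, and Student's test is named there for body composition and metabolic readouts. The adjustment of its p-values was added here.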

Additional observations from a re-analysis of the deposited data

Results flagged for a closer look

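The effects of LDC in males and in females differed for 3 of 21 tested member probe sets in the limma test of that difference. Values are the male effect minus the female effect on the log2 scale. Of all tested probe sets, 0.178% were called. The 3 were Mt2 (5.53, SE 0.47), the main probe set of Mt1 (3.55, SE 0.34) and the second probe set of Slc30a10 (-1.70, SE 0.30). The main probe set of Slc30a10 did not pass (-1.51, limma adjusted p = 0.112).

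The same test singled out 7 genes of the lists set beside the members, all with a higher effect in males. Of all tested probe sets, 0.126% were called as higher in males. These were the neutrophil markers S100a8 (4.60, SE 0.32), S100a9 (4.05, SE 0.50), Ngp (2.99, SE 0.43) and Prtn3 (5.75, SE 0.95), the immunoglobulin genes Ighm (3.81, SE 0.65) and Jchain (3.08, SE 0.41), and the acute phase gene Lcn2 (4.41, SE 0.80).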

How the results depend on the processing

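The fall of Mt1 and Mt2 in LDC females stayed called in 11 of 12 other settings and in 12 of 12 fits without an array, and the difference between male and female effects in 10 of 10 and 12 of 12. The exception was Student's test after Benjamini-Hochberg adjustment, which called 0 probe sets in either exposure comparison (1907 in females and 2454 in males at an unadjusted p under 0.05, with 3 members and 1 member). With a 2-fold difference and an unadjusted p under 0.05, Student's test took Mt1 and Mt2 in females (1.07% of all tested probe sets) and Slc30a10 in males (1.35%). After adjustment it also lost the calls of Slc30a10 and Slc39a4 between LDC males and LDC females and of Slc39a14 between control males and control females.

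The count of called members changed in these cases. In LDC males against control males it was 0 without an intensity trend and with adjusted Student's test, and 2 with the replicate block. Adjusted Student's test gave 0 in LDC females against control females and 3 between LDC males and LDC females, where the count was 4 with no trend and 6 with array weights, which added Slc30a1, and with any tested probe set of a gene. Counting any tested probe set made it 3 for the difference of effects. For the mean effect over both genders it was 0 with quantile normalization, with 1 probe set per gene and with no trend, and 2 with the replicate block. Between control males and control females it was 0 with median centring, with no trend and with adjusted Student's test. Leaving out 1 array gave 2 to 3 members in LDC females, 0 to 1 in LDC males, 2 to 3 for the difference, 0 to 2 for the mean effect, 4 to 6 between LDC males and LDC females, and 0 to 2 between control males and control females.

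Over all probe sets, the 33 calls in LDC females became 13 without a trend, 11 with each gender fitted alone and 15 to 106 without 1 array, and the 75 in LDC males became 1 without a trend, 48 with the replicate block and 17 to 103 without 1 array. The 48 calls of the difference became 10 without a trend, 30 when each gene had 1 probe set, and 22 to 78 without 1 array.

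Over all tested probe sets, same-numbered arrays did not deviate together (r between -0.03 and 0.06 over 18 pairs, 0 above 0.1). A pairing that touches few genes would not be seen by this measure. With the replicate block, Mt1 in LDC males passed (0.98, limma adjusted p = 0.0493) and Mt1 passed in the mean effect (adjusted p = 0.0338). It changed no other call among the members.

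Directions turned only for values never called in any fit. Mtf1 between LDC males and LDC females became 0.025 with quantile normalization and spanned -0.16 to 0.12 without 1 array, and Mtf1 between control males and control females became -0.0061 with median centring and spanned -0.037 to 0.12. Without 1 array, the difference of effects spanned -0.21 to 0.064 for Mtf1 and -0.079 to 0.30 for Slc39a8, the female effect -0.13 to 0.17 for Slc30a10, the male effect -0.18 to 0.080 for Slc11a2, and the mean effect -0.34 to 0.011 for Slc30a1 and -0.33 to 0.018 for Slc39a4. The cause was not tested. Having 3 arrays per group limits what could pass.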
